A study of Macaca mulatta with 12 samples.

Results

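THBS1 and ANKRD1 were followed across 4 rhesus macaque cell populations, as 2 of the 12993 genes named on the array. They were chosen by their measured log2 levels across the lines on these same arrays, so their own values are given below as a description and without a test. Every probe set annotated to either symbol was used, which gave 5 probe sets for THBS1 and 1 for ANKRD1.

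THBS1 encodes thrombospondin-1, a secreted matrix glycoprotein that binds cell-surface receptors such as CD47, CD36 and integrins and can activate latent TGF-beta. ANKRD1 encodes a small ankyrin repeat protein, also called CARP, which acts in the nucleus and binds titin in the sarcomere of striated muscle. Both genes are widely used as readouts of YAP and TAZ. These transcriptional co-activators enter the nucleus when cells spread, pull on a stiff substrate or are stretched, and they act through TEAD DNA-binding proteins. The kinases of the Hippo pathway hold YAP and TAZ in the cytoplasm, as happens in dense cultures. A neighbouring mechanical route runs through actin polymerisation, the MRTF co-activators and the serum response factor SRF.

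The populations were skin fibroblasts from a male monkey of 9 years, the parthenogenetic embryonic stem (ES) cell lines ORMES-9 and rPESC-2, and the biparental ES line ORMES-22, which came from an IVF embryo. Parthenogenetic lines descend from an egg that developed without sperm and hold only maternal genomes; ORMES-9 is labelled homozygous and rPESC-2 heterozygous. The labels disagree about ORMES-9, since its source field names a fertilised blastocyst while its description and the series design call it a parthenote, and it is treated here as the design does. All ES lines are labelled female, and each is a single line with 3 arrays, labelled as biological replicates A, B and C, so a difference between lines cannot be told apart from a difference in origin. ES cells grew on inactivated mouse embryonic fibroblast feeders, and their RNA came from colonies picked as undifferentiated. ORMES-9 was taken at passages 13, 14 and 16 (replicates A, B and C), rPESC-2 at 16, 10 and 16, and ORMES-22 at 18, 21 and 19. The fibroblast donor was 1 animal by its label, and fibroblasts had no feeder layer in their protocol, so feeder, sex and cell type cannot be told apart between fibroblasts and ES cells.

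Levels are log2 values as deposited, in which a step of 1 is 2-fold. Array medians were alike, from 5.012 to 5.097. Bacterial control probe sets, whose RNA is absent from monkey cells, had a median of 3.77 and a 90th percentile of 4.17, and values near these are close to background. ORMES-22 replicate A stood somewhat apart from its line, with a correlation over all probe sets of 0.9855 with replicate B and 0.9844 with replicate C, against 0.9928 between B and C. Results that rest on ORMES-22 are therefore also given without that array. Of 8 measured pluripotency markers, 6 were called lower in fibroblasts than in the ES lines, against 15% of all genes, though NANOG was higher there. Of 7 measured fibroblast markers, 5 were called higher in fibroblasts, against 13.2% of all genes. DCN and THY1 were not, and their differences from the ES lines were negative, at -0.43 and -0.31.

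THBS1 was bright in fibroblasts, intermediate in ORMES-9 and ORMES-22, and low in rPESC-2. On its probe set with the highest mean (MmuSTS.4004.1.S1_at, called set 1 here), replicates A, B and C read 12.63, 12.78 and 12.64 in fibroblasts. They read 9.80, 10.59 and 11.06 in ORMES-9, 6.74, 5.73 and 5.15 in rPESC-2, and 10.17, 11.13 and 11.64 in ORMES-22. All rPESC-2 arrays lay below all other arrays, while those of ORMES-9 and ORMES-22 overlapped. The means were 12.68 ± 0.08 in fibroblasts, 10.48 ± 0.64 in ORMES-9, 5.87 ± 0.81 in rPESC-2 and 10.98 ± 0.75 in ORMES-22 (SD, n = 3 each). The order from high to low was thus fibroblasts, then ORMES-22 and ORMES-9, which did not differ beyond their spread, then rPESC-2.

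rPESC-2 minus ORMES-22 was -5.11 (SE 0.43), or 34.4-fold lower, the second most negative of 12993 genes, and -5.51 without ORMES-22 replicate A. ORMES-9 minus rPESC-2 was 4.61, or 24.4-fold higher, the most positive of all genes in that comparison. So the heterozygous and the homozygous parthenogenetic line lay far apart for THBS1 on set 1. ORMES-9 minus ORMES-22 was only -0.49, within the spread of the replicates, and -0.90 without ORMES-22 replicate A. That array made the overlap, since all ORMES-9 arrays lay below replicates B and C of ORMES-22. Fibroblasts minus the mean of the 3 ES lines was 3.57 (SE 0.35), or 11.9-fold higher. ORMES-9 minus ORMES-22 had rank 499 from the negative end, and the fibroblast difference rank 225 from the positive end. All these ranks are on set 1. Since the genes were chosen by such levels, the ranks are a description only.

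ANKRD1 ordered the same populations differently. Its probe set (MmuSTS.68.1.S1_at) read 8.37, 8.50 and 8.21 in fibroblasts and 4.94, 5.20 and 5.61 in ORMES-9. It read 8.12, 6.94 and 6.09 in rPESC-2 and 7.47, 9.16 and 10.05 in ORMES-22. Here ORMES-9 was the low line, below every array of the other populations, and rPESC-2 lay between. The means were 8.36 ± 0.15 in fibroblasts, 5.25 ± 0.34 in ORMES-9, 7.05 ± 1.02 in rPESC-2 and 8.89 ± 1.31 in ORMES-22 (SD, n = 3 each). From high to low the order was ORMES-22, fibroblasts, rPESC-2 and ORMES-9, with ORMES-22 overlapping both fibroblasts and rPESC-2.

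ORMES-9 minus ORMES-22 was -3.64 for ANKRD1, or 12.5-fold lower, the seventh most negative of all genes, and -4.35 without ORMES-22 replicate A. ORMES-9 minus rPESC-2 was -1.80, or 3.48-fold lower. Neither pair overlapped, as held in that direction for 10.1% of all probe sets in each comparison. rPESC-2 minus ORMES-22 was -1.84 (SE 0.58) with overlapping arrays (3.59-fold lower), and -2.55 (5.87-fold lower) without ORMES-22 replicate A. Fibroblasts minus the mean of the ES lines was 1.29 (SE 0.47), or 2.45-fold, and the ranges overlapped because of ORMES-22. From the negative end, rPESC-2 minus ORMES-22 had rank 24 and ORMES-9 minus rPESC-2 rank 34. The fibroblast difference had rank 1329 from the positive end. As for THBS1, ranks are a description only. The comparisons of the parthenogenetic lines with ORMES-22 share the ORMES-22 arrays, so those differences are not independent of each other.

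In RNA from a mass of cells, fewer cells expressing a gene and less RNA per expressing cell cannot be told apart, and this holds for every value here.

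**Figure D1:**
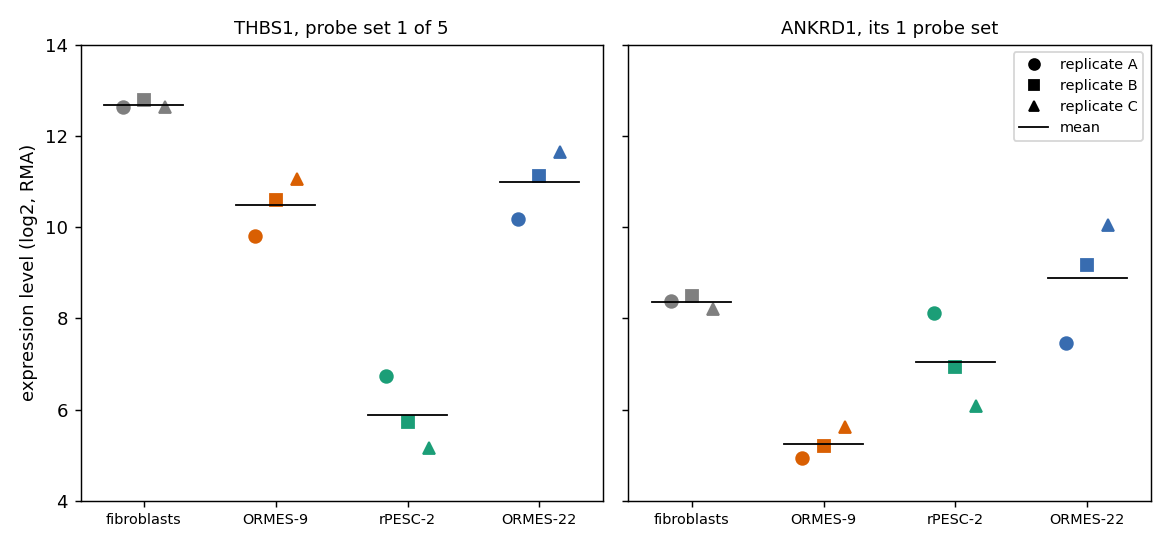
Expression level (log2, vertical axis) of THBS1 on probe set 1 and of ANKRD1 in the 12 arrays, by population. Points are replicates A, B and C, and lines are means. THBS1 was lowest in rPESC-2, with a mean of 5.87, and ANKRD1 in ORMES-9, with a mean of 5.25.

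Among the other THBS1 probe sets, sets 2 and 3 gave a contrast in the same direction as set 1, and sets 4 and 5 gave little of it. The cause of this disagreement was not tested. Set 2 (MmugDNA.4045.1.S1_at) read 13.34, 13.25 and 13.36 in fibroblasts, 7.86, 8.67 and 9.04 in ORMES-9, 7.12, 6.54 and 6.61 in rPESC-2, and 8.12, 9.53 and 10.10 in ORMES-22. Set 3 (MmugDNA.4046.1.S1_at) read 12.24, 12.64 and 12.40 in fibroblasts, 7.52, 8.50 and 8.96 in ORMES-9, 5.17, 4.65 and 4.50 in rPESC-2, and 7.77, 9.10 and 9.65 in ORMES-22. On both sets every rPESC-2 array lay below every array of the other lines, and ORMES-9 overlapped ORMES-22 only through ORMES-22 replicate A.

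Set 4 (MmugDNA.4044.1.S1_at) read 10.69, 10.44 and 10.50 in fibroblasts, 5.53, 5.84 and 5.92 in ORMES-9, 6.25, 5.54 and 6.09 in rPESC-2, and 5.96, 6.79 and 7.06 in ORMES-22. Set 5 (MmugDNA.6370.1.S1_at) read 8.45, 8.37 and 8.32 in fibroblasts and between 4.77 and 5.13 in the 9 ES arrays. On these sets rPESC-2 was not the low line. Set 4 instead had ORMES-9 below ORMES-22 with no overlap, at -0.84, as had 10.1% of all probe sets, and set 5 overlapped among all ES lines.

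rPESC-2 minus ORMES-22 was -2.49, -4.06, -0.65 and -0.06 on sets 2 to 5. The arrays were lower without overlap on 3 of the 5 sets, set 1 included, while 10.9% of all 52766 probe sets were lower without overlap in that comparison. ORMES-9 minus rPESC-2 was 1.77, 3.55, -0.20 and -0.11 on sets 2 to 5, higher without overlap on the same 3 sets, against 12.4% of all probe sets. The size of the THBS1 difference between ES lines thus depended on the probe set, and its sign on sets 4 and 5 for ORMES-9 minus rPESC-2 was opposite to that on sets 1 to 3. Fibroblasts were higher on all 5 sets without overlap, by 3.46 to 5.14, against 18.3% of all probe sets. No set had a group mean at or below the 90th percentile of the bacterial controls. Which transcripts the sets read is not given in the sources used here.

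**Figure D2:**
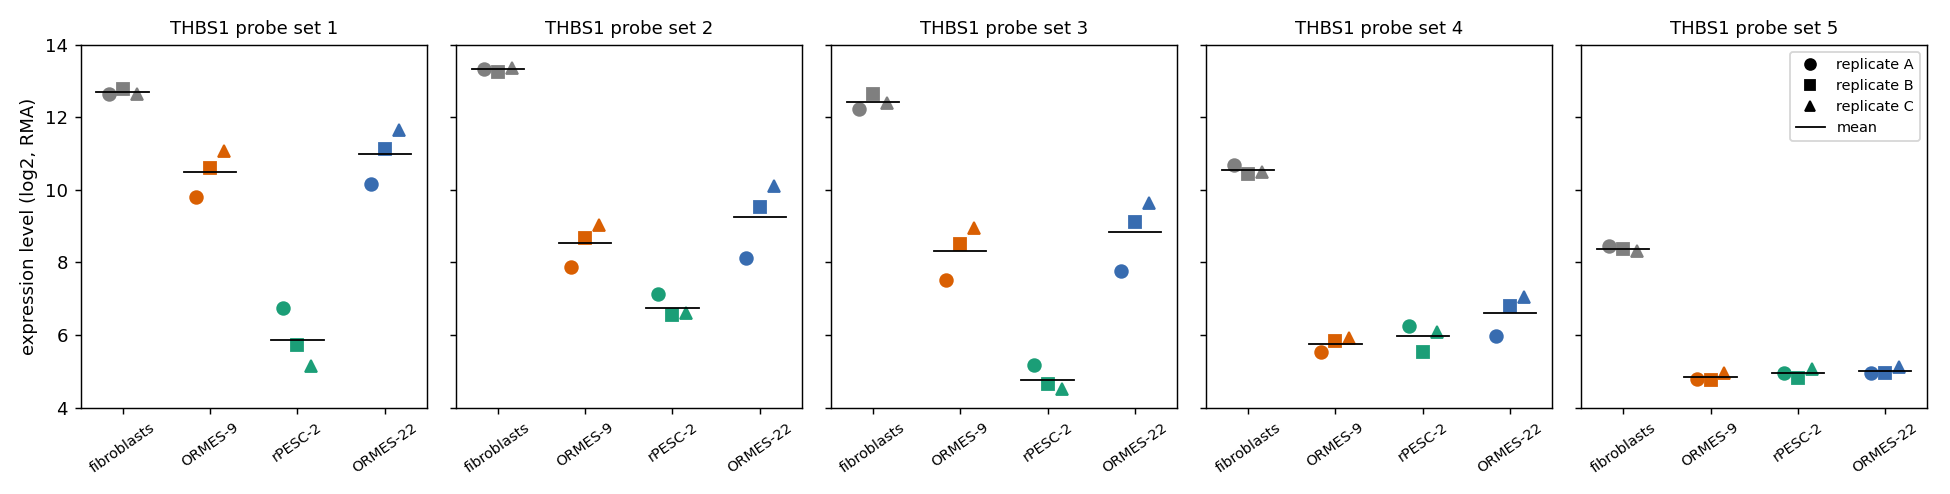
Expression level (log2, vertical axis) of THBS1 on each of its 5 probe sets, by population, with points for replicates A, B and C and lines for means. rPESC-2 was lowest on sets 1 to 3, and the ES lines lay close together on sets 4 and 5.

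Among the other YAP and TAZ target genes, FOXF2 was the single one called between ES lines. Of 21 listed, 17 were measured, and a gene was called where limma gave a Benjamini-Hochberg adjusted p under 0.05 over all probe sets and the difference was at least 2-fold. For rPESC-2 minus ORMES-22, 1 of the 17 was lower and none was higher, against 1.7% of all genes called in either direction. That was 1 lower call where 0.685% of all genes were called lower. It was FOXF2, a forkhead factor of mesenchyme, with replicates A, B and C at 4.31, 4.29 and 4.17 in rPESC-2 against 4.69, 6.80 and 7.29 in ORMES-22. The difference was -2.01 (SE 0.47, adjusted p = 0.033). For ORMES-9 minus ORMES-22, FOXF2 was again the single call, at 4.38, 4.34 and 4.46 in ORMES-9 and -1.87 (adjusted p = 0.038), against 2.29% of all genes called and 0.916% called lower. Both differences share the ORMES-22 arrays, and both parthenogenetic lines lay near background for FOXF2.

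Both FOXF2 calls rested on the full set of arrays. In the rPESC-2 comparison the call was lost without any 1 of the fibroblast arrays, the rPESC-2 arrays, either replicate B or C of ORMES-22, or replicate C of ORMES-9, and in the ORMES-9 comparison without any 1 array other than ORMES-22 replicate A. Without ORMES-22 replicate A, limma called 3 targets lower in rPESC-2, namely MYOF (-1.18), FJX1 (-1.20) and FOXF2 (-2.79), and 2 lower in ORMES-9, namely MYOF (-1.35) and FOXF2 (-2.65). The share of all genes called also grew without that array, to 4.19% and 3.69%. MYOF encodes myoferlin, a membrane repair protein, and FJX1 a secreted relative of a Drosophila regulator of growth.

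CCN1 and CCN2, matricellular proteins and classical YAP targets, were high in every population and were not called between the lines. CCN2 read 12.42, 12.94 and 12.85 in ORMES-9, 12.84, 12.71 and 12.48 in rPESC-2, and 12.74, 13.33 and 13.50 in ORMES-22. Its difference from ORMES-22 was -0.45 in ORMES-9 (adjusted p = 0.21) and -0.51 in rPESC-2 (adjusted p = 0.14 by limma). The other 2 probe sets of CCN2 lay at 0.04 and 0.23 in rPESC-2 minus ORMES-22, neither called. CCN1 differed from ORMES-22 by -0.37 in ORMES-9 and -0.55 in rPESC-2 (adjusted p = 0.42 and 0.18). For the pairs of lines in which THBS1 was 34.4-fold lower on set 1 and ANKRD1 12.5-fold lower, CCN1 and CCN2 differed by at most 1.46-fold. On sets 4 and 5, THBS1 was 1.56-fold and 1.05-fold lower in rPESC-2 than in ORMES-22. Without ORMES-22 replicate A these CCN1 and CCN2 differences were between -0.65 and -0.82 (adjusted p from 0.0059 to 0.03), still under 2-fold. Between ORMES-9 and rPESC-2 none of the 17 targets was called by limma, 2 had an unadjusted p under 0.05, and 1.65% of all genes were called, 0.777% higher and 0.877% lower. The largest differences there were 0.72 for FJX1 and 0.71 for RBMS3 (adjusted p = 0.25 and 0.11), and RBMS3 was at background in rPESC-2.

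Over the 17 targets the median difference was -0.26 for rPESC-2 minus ORMES-22, -0.15 for ORMES-9 minus ORMES-22 and 0.06 for ORMES-9 minus rPESC-2. The medians over all genes were -0.03, -0.01 and 0.02.

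**Figure D3:**
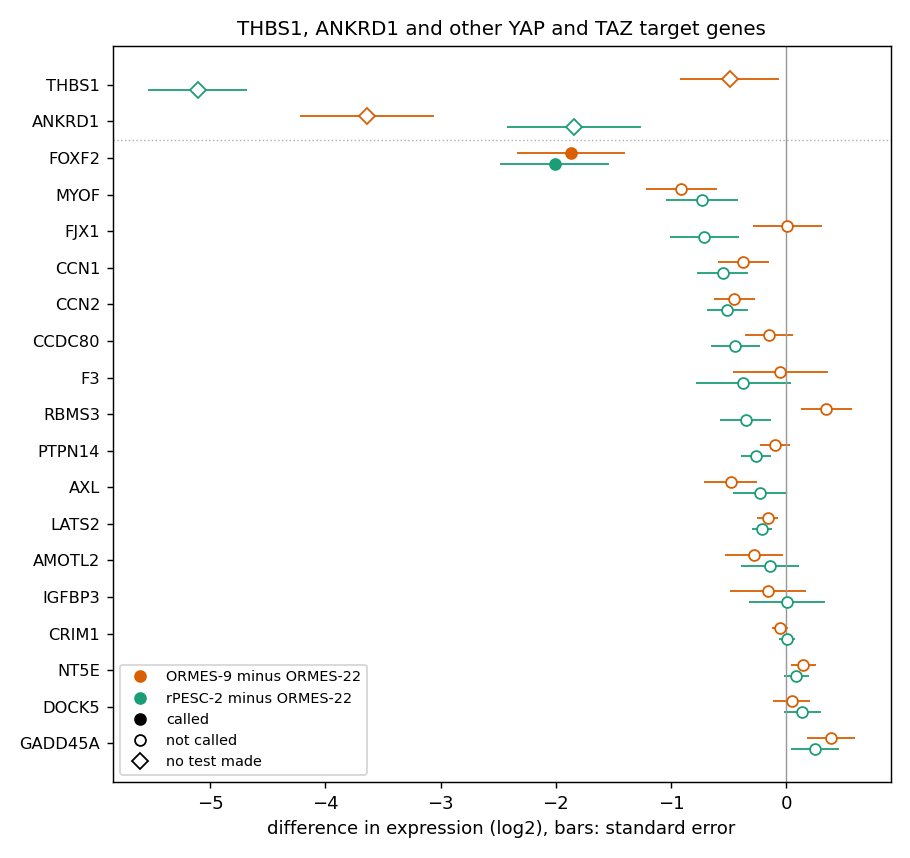
Difference in expression (log2, horizontal axis) of each parthenogenetic line from ORMES-22 for THBS1, ANKRD1 and 17 other YAP and TAZ targets, with bars for the standard error. Filled points passed the test, open points did not, and diamonds were not tested. THBS1 lay at -5.11 in rPESC-2 and ANKRD1 at -3.64 in ORMES-9, while FOXF2 was the only other target called.

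In fibroblasts several of the targets were higher. Of the 17, limma called 9 higher and none lower in fibroblasts than in the mean of the ES lines, against 28.3% of all genes called in either direction and 13.2% called higher. On the brightest probe set of each gene, the largest were CCDC80, a matrix protein, at 6.75, MYOF at 5.11, IGFBP3, which binds insulin-like growth factors, at 4.69, and DOCK5, a guanine exchange factor for Rac, at 4.53 (adjusted p from 6.9e-12 to 1.3e-08). THBS1, at 3.57, and ANKRD1, at 1.29, lay on either side of the targets' median of 1.91. The probe sets of CCN2 disagreed. The brightest read 12.02, 12.08 and 12.04 in fibroblasts, a difference of -0.83 (adjusted p = 0.00046, under 2-fold), whereas the other 2 were called higher, at 1.71 and 1.81 (adjusted p = 5.1e-07 and 5.1e-08), so no direction is given for CCN2 in fibroblasts. NT5E, an ectonucleotidase not counted among the 9 because its brightest set was at 0.35, had 2 other sets called higher, at 7.11 and 2.16. The other sets of DOCK5 were at 1.85 and 0.94, the second not called, and those of CCDC80 at 4.57 and 1.23, so these sizes and their order depend on the probe set. CCN1 was higher in fibroblasts by 0.78, also under 2-fold (adjusted p = 0.0025).

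Of the Hippo pathway genes that control YAP and TAZ, MOB1A was the single one called between ES lines on its brightest probe set. YAP1 itself read 6.09, 5.19 and 5.67 in ORMES-9, 5.67, 5.90 and 5.65 in rPESC-2, and 5.06, 6.08 and 5.74 in ORMES-22. These overlapped, with differences of 0.03 for ORMES-9 and 0.11 for rPESC-2 from ORMES-22 (adjusted p = 0.97 and 0.84 by limma). WWTR1, which encodes TAZ, read 9.42, 9.88 and 9.56 in ORMES-9, 9.10, 8.98 and 8.67 in rPESC-2, and 8.83, 9.74 and 10.03 in ORMES-22. rPESC-2 minus ORMES-22 was -0.61 (SE 0.24, adjusted p = 0.18), and -0.97 (adjusted p = 0.0013, under 2-fold) without ORMES-22 replicate A.

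TEAD4, a DNA-binding partner of YAP and TAZ, differed from ORMES-22 by -0.72 in ORMES-9 and -0.68 in rPESC-2 (adjusted p = 0.099 and 0.12). TEAD1 differed by 0.12 and -0.13 (adjusted p = 0.71 and 0.61), and TEAD2 by 0.17 and 0.29 (adjusted p = 0.4 and 0.12). TEAD3 was not among the genes named here. Of 18 measured Hippo pathway genes of 21 listed, none was called against ORMES-22 in either parthenogenetic line, with 7 for rPESC-2 and 6 for ORMES-9 at an unadjusted p under 0.05, and 1.7% and 2.29% of all genes were called. The largest differences were -0.69 for AMOTL1, an angiomotin relative, in rPESC-2 (adjusted p = 0.19) and -0.97 for MOB1A in ORMES-9 (adjusted p = 0.0042, just under 2-fold), though another MOB1A probe set was called there, at -1.67. Without ORMES-22 replicate A, AMOTL1 was called lower in rPESC-2 by limma, at -1.08 (adjusted p = 0.002). In that setting 545 genes, or 4.19% of all, were called in this comparison, 208 of them lower.

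MOB1A, a co-activator of the LATS kinases, was the 1 of 18 Hippo genes called between ORMES-9 and rPESC-2, against 1.65% of all genes. It read 7.58, 7.86 and 7.69 in ORMES-9 against 8.84, 9.33 and 8.94 in rPESC-2, a difference of -1.33 (SE 0.17, adjusted p = 0.00062). Of its 3 probe sets a second was called too, at -1.92, and the third was at -0.53 (adjusted p = 0.1). In fibroblasts limma called 7 of the 18 Hippo pathway genes higher and 4 lower, against 13.2% and 15% of all genes. YAP1 was higher by 1.86 and WWTR1 by 1.25 (adjusted p = 6e-06 and 0.00016). The other 3 YAP1 probe sets were at 0.04 to 0.72, all under 2-fold, and LATS1, NF2 and VGLL4 were called higher only on probe sets other than their brightest. Large differences were 4.25 for FRMD6, a cortical upstream regulator, and -2.76 for TEAD2. FAT4, a giant cadherin, was at 3.70, but its means of 3.87 in ORMES-9, 4.00 in rPESC-2 and 4.29 in ORMES-22 lay around the background level, so the size of that difference is not well measured.

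The SRF and MRTF targets, which answer to actin tension, had 11 of 18 measured. CNN1, the smooth muscle actin-binding protein calponin, was the single call between ES lines on the brightest probe sets, 1 of 11 against 2.29% of all genes. It read 9.14, 9.49 and 9.76 in ORMES-9 against 10.68, 10.88 and 11.32 in ORMES-22, a difference of -1.50 (SE 0.20, adjusted p = 0.00068 by limma). In rPESC-2 it was -0.86 from ORMES-22 (adjusted p = 0.028), under 2-fold. For rPESC-2 minus ORMES-22 limma called none of the 11, with 7 at an unadjusted p under 0.05, and all 11 differences were negative on the brightest probe sets, where 55.1% of all genes had a negative difference. Of the 6 genes with further probe sets, 2 had positive ones, MRTFB at 0.08 and FHL1 on 4 of 5, at 0.07 to 0.36. The largest was CAV1, the coat protein of caveolae, at -1.07 (adjusted p = 0.055). Between ORMES-9 and rPESC-2 none of the 11 was called by limma, 5 had an unadjusted p under 0.05, and the largest difference on the brightest sets was 0.94 for the immediate early gene FOS (SE 1.01). FHL1, a LIM domain protein, was at 0.41 on its brightest set but was called lower on 2 others, at -1.10 and -1.01 (adjusted p = 0.046 and 0.0018).

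Without ORMES-22 replicate A, 4 SRF and MRTF targets were called lower in rPESC-2, namely CNN1 (just past 2-fold), TPM1 (-1.02), JUNB (-1.20) and CAV1 (-1.29). In that setting 545 genes, or 4.19% of all, were called in this comparison, 208 of them lower. In fibroblasts JUNB, an immediate early transcription factor, and CAV1 were higher, by 2.06 and 1.85, and CNN1 was lower, at -1.45 (adjusted p from 6.7e-06 to 0.00016). The 3 calls of 11 measured stood against 28.3% of all genes. FHL1, not called on its brightest set, was called higher on 4 of its 5 others, at 2.31 to 2.79, and TPM1 was called in both directions on other sets.

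Among relatives and partners of the 2 genes, ITGB1 and CD47 were called between ES lines on their brightest probe sets. The other thrombospondins are named here as family members, after their values were seen. THBS2, the closest relative of thrombospondin-1 in this list, averaged 10.23 in ORMES-9, 10.67 in rPESC-2 and 10.55 in ORMES-22. Its rPESC-2 difference from ORMES-22 was thus 0.12, where THBS1 had -5.11 on set 1. THBS3 differed by 0.14 and THBS4 by 0.74 (adjusted p = 0.00041, under 2-fold) in rPESC-2 minus ORMES-22. Of 14 measured genes of 17 listed, 1 was called lower in rPESC-2 than in ORMES-22, where 0.685% of all genes were. That was ITGB1, the beta chain of many matrix-binding integrins, at 9.97, 9.43 and 9.28 in rPESC-2 against 10.14, 11.16 and 11.28 in ORMES-22, and -1.30 (SE 0.29, adjusted p = 0.026). The call did not survive the omission of replicate B or of replicate C in either line, and the difference was -1.66 without ORMES-22 replicate A.

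CD47, a receptor that thrombospondin-1 binds, was the 1 of 14 genes called between ORMES-9 and rPESC-2, against 1.65% of all genes. THBS1 was also higher in ORMES-9 there, on its sets 1 to 3. CD47 read 8.93, 9.08 and 8.76 in ORMES-9 against 7.54, 7.57 and 7.67 in rPESC-2, a difference of 1.33 (SE 0.12, adjusted p = 5.6e-05 by limma). The call rests on 1 of its 5 probe sets, since the others lay between -0.42 and 0.12 and were not called. ITGA3, an integrin chain, was 0.69 above ORMES-22 in ORMES-9 (adjusted p = 0.00096, under 2-fold), and no gene of this list was called there by limma on its brightest probe set, with 5 at an unadjusted p under 0.05 and 2.29% of all genes called. ITGA6, the alpha chain of laminin-binding integrins, was called higher than in ORMES-22 on 1 of its 4 probe sets, at 1.12 in ORMES-9 and 1.26 in rPESC-2 (adjusted p = 0.016 and 0.012), while its brightest set was at 0.16 and -0.08. CD36 was near background in the ES lines, with means from 3.56 to 3.72. In fibroblasts 6 of the 14 were called higher and 1 lower, against 13.2% and 15% of all genes. ADAMTS1, a protease that cleaves thrombospondins, was higher by 5.07, CD47 by 3.32, ITGB1 by 2.79 and THBS2 by 1.98, and ITGA6 was lower, at -4.78 (adjusted p from 4.7e-12 to 6.1e-07). Of the other 4 CD47 probe sets, 1 was at -0.35 there.

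Of the ANKRD1 relatives and sarcomere partners 5 of 7 were measured, and limma called none between ES lines, with 2 at an unadjusted p under 0.05 for rPESC-2 minus ORMES-22, 1 for ORMES-9 minus ORMES-22 and 0 for ORMES-9 minus rPESC-2. Of all genes 1.7%, 2.29% and 1.65% were called in those comparisons. ANKRD23, of the same muscle ankyrin repeat family, was 0.63 above ORMES-22 in ORMES-9 (adjusted p = 0.055), where ANKRD1 was at -3.64. TTN, which encodes titin, was at -0.27 there (adjusted p = 0.44). In fibroblasts MYPN, a titin-associated Z-disc protein, was higher by 2.14 and ANKRD23 was lower, at -1.20 (adjusted p = 3.6e-11 and 1.1e-05). The other 2 MYPN probe sets, at 0.23 and 0.25, and the other of ANKRD23, at -0.55, were not called.

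Markers of other cell types moved between the ES lines beside these genes. Of 8 measured cardiac muscle markers, ACTC1 and MYL7 were called lower in both parthenogenetic lines, with ACTC1 at -2.24 in ORMES-9 and -2.48 in rPESC-2 against ORMES-22. Of all genes 0.916% and 0.685% were called lower in these comparisons. The mean level of the cardiac list ran from 6.77 to 7.36 in ORMES-9, 6.95 to 7.26 in rPESC-2 and 7.60 to 7.79 in ORMES-22. The list did not move as a whole. Against ORMES-22, 6 of the 8 differences were negative in ORMES-9 and 4 in rPESC-2, beside 51.1% and 55.1% of all genes. RYR2 was positive in both, at 0.31 and 0.25, and at 0.66 and 0.59 without ORMES-22 replicate A, all under 2-fold. Of 6 measured endoderm markers, 3 were called higher in ORMES-9 and 4 in rPESC-2 than in ORMES-22, against 1.38% and 1.02% of all genes. The list means were 7.27 to 7.77 in ORMES-9, 7.83 to 8.01 in rPESC-2 and 5.95 to 6.51 in ORMES-22. The fibroblast list ran from 7.09 to 7.29 in ORMES-9, 6.82 to 7.23 in rPESC-2 and 7.28 to 7.45 in ORMES-22, with 2 of its 7 genes at or under the background level in each. Of 7 endothelial markers, TEK, the angiopoietin receptor, was called lower in ORMES-9, where ANKRD1 was low, at -2.29 from ORMES-22 and -2.21 from rPESC-2 (adjusted p = 4.9e-05 and 8.1e-05 by limma). It read 7.36, 7.82 and 8.38 in ORMES-9, 10.09, 9.98 and 10.10 in rPESC-2 and 9.99, 9.94 and 10.51 in ORMES-22. The endothelial list ran from 5.44 to 5.51 in ORMES-9, 5.68 to 5.82 in rPESC-2 and 5.73 to 5.88 in ORMES-22. Of its 7 genes 1, ERG, was at or under the background level in each. TEK had by far the largest difference. For ORMES-9 minus ORMES-22, 4 of the 7 were negative, where 51.1% of all genes were. VWF (0.29), PECAM1 (0.11) and KDR (0.10) were positive, none of them called. The trophoblast list, with none of its 8 genes called between ES lines by limma, ran from 6.45 to 7.16 in ORMES-9, 6.33 to 6.55 in rPESC-2 and 6.32 to 7.10 in ORMES-22, and 3 of the 8 had an unadjusted p under 0.05 for rPESC-2 minus ORMES-22, 1 for each other pair. The part of such cells in the levels of either gene was not tested.

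Although the 2 genes ordered the lines differently, their replicates within a line moved together. After each ES array was expressed as its deviation from its own line's mean, THBS1 in replicates A, B and C was at -0.68, 0.10 and 0.58 in ORMES-9, 0.87, -0.14 and -0.72 in rPESC-2, and -0.81, 0.15 and 0.66 in ORMES-22. ANKRD1 was at -0.31, -0.05 and 0.36 in ORMES-9, 1.07, -0.11 and -0.96 in rPESC-2, and -1.42, 0.26 and 1.16 in ORMES-22. In all 3 lines the replicate that was highest for THBS1 was also highest for ANKRD1, and likewise the lowest. Replicate C was the high one in ORMES-9 and ORMES-22, and replicate A in rPESC-2. Passage number ran the same way in ORMES-9, but not in ORMES-22, where replicate B had the highest passage, or in rPESC-2, where replicates A and C shared passage 16 and lay at opposite ends.

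Over these 9 arrays, which share 3 line means, Pearson's r of the deviations was 0.93 and Spearman's rho 0.98, given as a description of these arrays. Without ORMES-22 replicate A and rPESC-2 replicate C, the arrays farthest from the THBS1 median, r was 0.89. Without all arrays of ORMES-9, rPESC-2 or ORMES-22 it was 0.99, 0.89 and 0.93. Of the other THBS1 probe sets, sets 2, 3 and 4 followed ANKRD1 with r of 0.87, 0.86 and 0.76, and set 5, which was dim in ES cells, with 0.27.

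**Figure D4:**
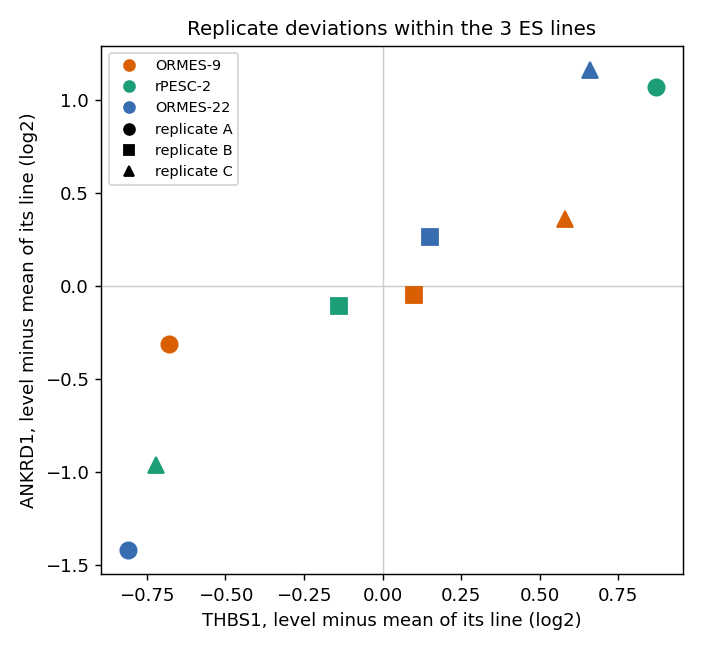
ANKRD1 (vertical axis) against THBS1 (horizontal axis) as deviations from the line mean (log2) in the 9 ES arrays, by line and replicate. The points run from ORMES-22 replicate A at the lower left, at -0.81 and -1.42, to rPESC-2 replicate A and ORMES-22 replicate C at the upper right.

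Several genes of the mechanical lists deviated along with the pair. With THBS1 the median r was 0.57 over the 17 YAP and TAZ targets, 0.65 over the 11 SRF and MRTF targets, 0.28 over the 14 thrombospondins and partners, 0.23 over the 18 Hippo genes and 0.24 over the 5 ANKRD1 relatives, beside -0.06 over all other genes. With ANKRD1 the medians were 0.74, 0.55, 0.31, 0.31 and 0.02 in the same order of lists, beside -0.06. An r above 0.8 with THBS1 was found for 4 of the 17 YAP and TAZ targets and 4 of the 11 SRF and MRTF targets, and for 2.46% of all other genes. With ANKRD1 it was 5 of 17 and 4 of 11, and 3.36% of all other genes. Of the 14 thrombospondins and partners it was 1 with THBS1 and 3 with ANKRD1, and of the 18 Hippo genes 0 and 3. Of the 5 ANKRD1 relatives it was 0 with either, so an excess with ANKRD1 was not confined to the target lists. Without the ORMES-22 arrays the medians with THBS1 were 0.55 for YAP and TAZ targets, 0.63 for SRF and MRTF targets, 0.13 for thrombospondins and partners, -0.04 for Hippo genes and 0.27 for ANKRD1 relatives. With ANKRD1 they were 0.54, 0.46, -0.03, -0.04 and 0.07 in the same order, so those of the thrombospondin and Hippo lists rested on the ORMES-22 arrays.

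The genes named next were picked for their values. CCN1 had r of 0.93 with THBS1 and 0.89 with ANKRD1, and CCN2 had 0.89 and 0.87. AMOTL2, an angiomotin relative that binds YAP, had 0.84 with both. TAGLN and TPM1, actin-binding targets of SRF, had 0.94 and 0.91 with THBS1, and CAV1 had 0.94. ADAMTS1 had 0.92 with THBS1, and THBS2 had 0.93 with ANKRD1. WWTR1 had 0.77 with THBS1 and 0.87 with ANKRD1, whereas YAP1 had 0.14 and 0.40. Some members ran the other way, NT5E at -0.80 with THBS1, CD36 at -0.79 and LATS1, a Hippo kinase, at -0.77. The deviations of CCN1 were small in size, from -0.55 to 0.30, beside -0.81 to 0.87 for THBS1 and -1.42 to 1.16 for ANKRD1.

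The mean deviation of some marker lists also moved with the pair. Its r with THBS1 and with ANKRD1 was 0.82 and 0.78 for trophoblast markers, 0.81 and 0.59 for cardiac markers and 0.67 and 0.53 for fibroblast markers. It was 0.22 and 0.39 for endoderm, -0.05 and -0.13 for endothelial and -0.38 and -0.24 for pluripotency markers. These values are the r of a list's mean, whereas those of the mechanical lists are medians of the r of each gene. Their sizes therefore cannot be compared with each other. No background over all genes is given for list means. RNA integrity, read as the 3′ minus 5′ level of control probe sets, ran in the ES arrays from 0.32 to 0.88 for actin and 0.79 to 1.01 for GAPDH, and its deviations had r of -0.23 and -0.29 with THBS1 and -0.54 and -0.55 with ANKRD1. ORMES-22 replicate A had the highest actin value, 0.88, in its line and among all arrays. The part of these cell types, of the feeder layer or of RNA integrity in the joint deviations was not tested.

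**Figure D5:**
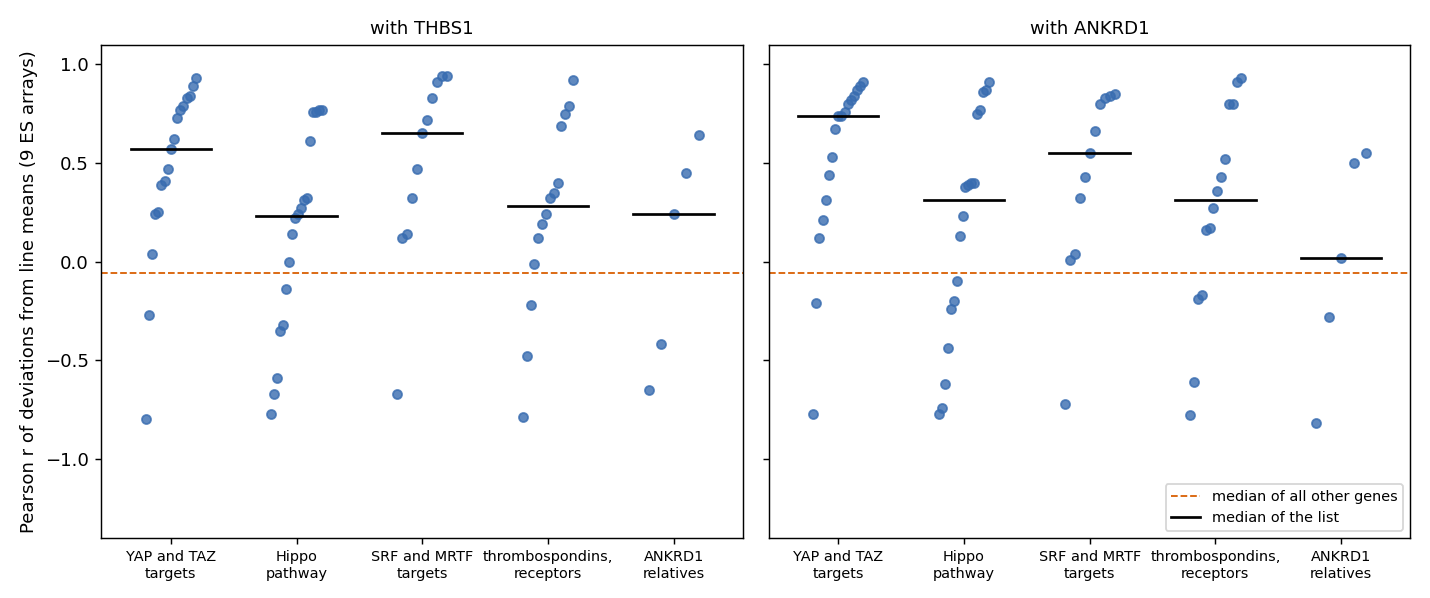
Pearson's r (vertical axis) between each listed gene's deviations and those of THBS1 (left) or ANKRD1 (right) over the 9 ES arrays, with black lines for list medians and a dashed line for the median of all other genes. The YAP and TAZ and the SRF and MRTF targets have medians of 0.57 and 0.65 with THBS1, above -0.06 for all other genes.

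The genes whose pattern was most like each member were found by the root mean square difference between log2 values after each gene's own mean was subtracted. That they are high or low in the same lines as the member follows from this choice. Over the 12 arrays CDKN2A, EPHA1, NMS, NEDD9 and ITGB1 were nearest to THBS1, at 1.55 to 1.62, where the median gene was at 2.61 and ANKRD1 at 2.49. ITGB1, in the list of THBS1 receptors, was thus among the 5 nearest. Over the 9 ES arrays SPATS2L was nearest, at 0.93, followed by MECOM at 1.16, EPHA1 at 1.51, CRYGB at 1.54 and TRIM5 at 1.56, with a median of 2.37 and ANKRD1 at 2.64. SPATS2L read 10.23, 10.41 and 10.34 in ORMES-9, 7.45, 7.12 and 7.40 in rPESC-2, and 9.67, 11.01 and 11.19 in ORMES-22. MECOM, a zinc finger transcription factor, was likewise low in rPESC-2, with means of 7.84 in ORMES-9, 4.81 in rPESC-2 and 7.41 in ORMES-22. Unlike THBS1 it was low in fibroblasts, at 4.72.

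Nearest to ANKRD1 over the 12 arrays were EIF5A at 0.68, CDH11 at 0.78, MORF4L1 at 0.82, TWIST1 at 0.84 and MRPL54 at 0.85, beside a median of 1.60. Over the 9 ES arrays they were CDH11 at 0.67, TWIST1 at 0.76, EIF5A at 0.78, MRPL54 at 0.79 and MMP12 at 0.80, beside a median of 1.69. CDH11, a cadherin of mesenchymal cells, averaged 11.43 in fibroblasts, 7.78 in ORMES-9, 8.88 in rPESC-2 and 10.24 in ORMES-22. TWIST1, a mesenchymal transcription factor, averaged 9.49, 5.80, 6.67 and 8.47 in the same order of populations. Both were lowest in ORMES-9, as ANKRD1 was, which follows from their choice by likeness to it. EIF5A, MORF4L1 and MRPL54 were lowest there too, at means of 6.41, 8.46 and 6.25. MMP12 averaged 4.24 in ORMES-9 and was lower in fibroblasts, at 3.64. Other probe sets of CDKN2A, NEDD9, EPHA1 and TRIM5 did not all share the pattern of the one used. For example, 2 of CDKN2A's differed by at most 0.12 between ES lines. For these genes likeness to THBS1 depended on the probe set chosen. The other sets of MECOM and NMS were close to those used, at 2.97 beside 3.03 and 0.68 beside 0.73 for ORMES-9 minus rPESC-2. Of the genes nearest to ANKRD1, EIF5A, TWIST1, MRPL54 and MMP12 had 1 set each, and CDH11 and MORF4L1 had others. Other CDH11 sets were at -1.08 and -0.20 for ORMES-9 minus rPESC-2, beside -1.10 on the one used. Other MORF4L1 sets were at -1.10 to -0.85 for ORMES-9 minus ORMES-22, beside -2.78.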

How the data were processed

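Total RNA of 12 samples was labelled with biotin after one-cycle amplification from an oligo-dT primer and hybridised singly to Affymetrix rhesus arrays (per the labels' protocols). The authors deposited log2 values for each probe set. The submitters' processing notes name RMA, with no version. How probe sets were defined is not given in the sources used here, and the log2 scale was read from the values. RMA makes array distributions alike, and it compresses differences near background.

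Of 52865 features, 99 controls were left out. Symbols came from the platform annotation: 24956 probe sets had 1, 361 several (left unnamed) and 27449 none, and 1691 with provisional LOC symbols were left out. Each gene is given by its brightest probe set on average over the 12 arrays. Group means were fitted in limma 3.58.1 (R 4.3.3, lmFit then eBayes), with 8 residual degrees of freedom and a prior of 3.69. Two-sided p-values were adjusted by Benjamini-Hochberg over 52766 probe sets. Calls needed an adjusted p under 0.05 and 2-fold. The fit was tested on simulated data. No detection calls were used, the labels give no batch, and the number of arrays limits the precision. The replicates are labelled biological, but separate cultures are not described, so p-values measure the spread between these samples.

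THBS1, ANKRD1, the 5 pathway lists and the 6 marker lists were chosen with earlier results of these data known. Named genes were, per list and comparison, up to 4 called genes with the largest difference or else the 2 largest, the main YAP, TAZ, TEAD and CCN genes, and the 5 genes most like each member over 12 and over 9 arrays. Alternatives were other scalings, moderation, probe set choices, filters and array omissions, and the replicate letter as a block. No sequence is printed.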

Additional observations from a re-analysis of the deposited data

Results flagged for a closer look

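Set against ORMES-22, the 2 parthenogenetic lines gave unequal differences for 2 genes of the pathway lists. The test of that inequality is the direct comparison of ORMES-9 with rPESC-2 already given, in which the ORMES-22 arrays cancel. None of the 4 differences from ORMES-22 was itself called on the brightest probe sets. MOB1A was at -0.97 in ORMES-9 and 0.35 in rPESC-2 relative to ORMES-22, and the difference between those was -1.33 (adjusted p = 0.00062). Another MOB1A probe set was called by limma for ORMES-9 relative to ORMES-22, at -1.67 (adjusted p = 0.00028). CD47 was at 0.81 in ORMES-9 and -0.51 in rPESC-2, a difference of 1.33 (adjusted p = 5.6e-05), on 1 of its 5 probe sets.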

How the results depend on the processing

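Of 92 values of the THBS1 and ANKRD1 differences under other settings, 86 stayed within the replicate spread and 0 reversed. Those with 1 array left out could not leave that spread, which is set by the SDs of the same replicates. They are counted among the 86 but are no check. The values beyond the spread came from the probe sets used for THBS1. With the set of largest variance the difference was -4.06 for rPESC-2 minus ORMES-22, 3.55 for ORMES-9 minus rPESC-2 and 5.12 for fibroblasts minus ES lines, and with the mean of all its sets -2.47, 1.92 and 4.34. Sets 4 and 5 of THBS1 were not tried alone, and there ORMES-9 minus rPESC-2 had the opposite sign, at -0.20 and -0.11. ANKRD1 has 1 probe set, so the probe set choices could not move its differences. They too are counted among the 86 and are no check on them. With 1 array left out at a time, THBS1 ran from -5.54 to -4.74 for rPESC-2 minus ORMES-22, -0.90 to -0.15 for ORMES-9 minus ORMES-22, 4.25 to 5.04 for ORMES-9 minus rPESC-2 and 3.44 to 3.72 for fibroblasts. ANKRD1 ran from -2.55 to -1.26, -4.35 to -3.06, -2.28 to -1.26 and 1.05 to 1.48 in the same order. Of 395 counts of called list genes, 341 were within 1.5 times the reported count. For rPESC-2 minus ORMES-22, fitting only the arrays compared gave 0 YAP and TAZ targets and 0 thrombospondin genes, leaving out dim probe sets gave 1 SRF and MRTF target, and no fold minimum gave 1 Hippo, 1 SRF and MRTF and 3 thrombospondin genes. For ORMES-9 minus ORMES-22, fitting only the arrays compared or trended and robust moderation gave 0 YAP and TAZ targets, quantile normalisation or the set of largest variance gave 1 Hippo gene, and no fold minimum gave 2 Hippo, 2 SRF and MRTF and 2 thrombospondin genes. For ORMES-9 minus rPESC-2, no fold minimum gave 2 Hippo and 3 thrombospondin genes, and the set of largest variance gave 1 SRF and MRTF target. For fibroblasts, no fold minimum gave 15 YAP and TAZ, 17 Hippo, 8 SRF and MRTF and 11 thrombospondin genes, and the set of largest variance gave 5 SRF and MRTF targets. Leaving out 1 array at a time gave, for rPESC-2 minus ORMES-22, 0 to 3 YAP and TAZ targets, 0 to 1 Hippo, 0 to 4 SRF and MRTF and 0 to 1 thrombospondin genes. For ORMES-9 minus ORMES-22 it gave 0 to 2 YAP and TAZ targets and 0 to 1 Hippo genes. Over all genes, leaving out ORMES-22 replicate A gave 545 calls for rPESC-2 and 480 for ORMES-9, against 221 and 298. The replicate letters did not pair the arrays, as same-letter deviations correlated above 0.1 in 6 of 18 pairs (from -0.31 to 0.26). Each group holds one array per letter, so a replicate block cannot move a difference of means and is no check on it. Those values were by construction -5.11 and -1.84 for THBS1 and ANKRD1 in rPESC-2, -0.49 and -3.64 in ORMES-9, 4.61 and -1.80 between these lines, and 3.57 and 1.29 in fibroblasts, and the list counts, which the block can change through the error, were as reported. The 3 omissions in the within-line deviations were chosen after seeing the data. The fit of only the arrays compared was not run for fibroblasts, where all arrays are compared. The causes of these shifts were not tested, and values near background are compressed.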
